A study of Mus musculus with 15 samples.

Results

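Chemokine ligands made by T cells or by splenocytes were followed across cultures of T helper cells. They are 10 genes of the 18194 that the array could name: Ccl1, Ccl3, Ccl4, Ccl5, Ccl6, Ccl9, Ccl22, Xcl1, Cxcl9 and Cxcl10. They were listed by symbol, with earlier results of these data known. Each was read from 1 probe set, that with the highest mean over the 15 arrays. All 10 were on the array and passed the filter on low values, a log2 level above 5.07 (the 40th percentile of all deposited values) in 2 or more arrays. The data are log2 expression levels from 15 Affymetrix arrays of RNA taken at day 4, compared to ask whether T cells activated by antigen and by antibodies differ.

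The cultures began with naive CD4 T cells from 3A9 mice, whose transgenic T cell receptor recognises hen egg lysozyme (HEL), sorted by an antibody that binds the receptor. For the activation named HA, HEL was presented by irradiated (30 Gy) wild type splenocytes serving as antigen-presenting cells (APC), so that these cultures held splenocytes as well as T cells. HEL was at 1 µg/ml in Th9 cultures and at 2 µg/ml in Th1 and Th17 cultures. In the activation named PBAB, plate-bound antibodies against CD3 (1 µg/ml) and CD28 (10 µg/ml) gave the stimulus, and the protocol names no splenocytes. Under both activations Th1 cultures received IL-12 (10 ng/ml) and anti-IL-4 (10 µg/ml), and Th9 cultures received IL-4 (10 ng/ml) and TGF-beta (1 ng/ml). Th17 cultures received TGF-beta (3 ng/ml), IL-6 (10 ng/ml) and IL-1alpha (5 ng/ml), with anti-IFN-gamma (20 µg/ml), anti-IL-4 and anti-IL-12 (10 µg/ml each). Each culture had 2 arrays of HA, 2 of PBAB and 1 named APC alone. What cells and additions APC alone samples held is not described further. Replicates are labelled biological, but the animals and cultures behind them are not named, so each p-value reflects only the spread among these samples, which may be technical.

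Chemokines are small secreted proteins that bind receptors on leukocytes and guide their movement. Ccl3, Ccl4, Ccl5 and Xcl1 are products of activated T cells, NK cells and, for some, macrophages. Ccl6 and Ccl9 are made mainly by myeloid cells, Ccl22 by dendritic cells and macrophages, and Cxcl9 and Cxcl10 by many cells that respond to interferon. Fewer cells of a type and less RNA per cell cannot be told apart in these bulk samples.

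APC alone arrays differed widely from the other 12. They correlated with HA and PBAB arrays at 0.572 to 0.706, whereas replicates correlated at 0.987 to 0.990. Values also spread less in APC alone, with an interquartile range of 2.02 to 2.09 against 3.02 to 3.48 in HA and PBAB. Levels are thus on a narrower scale in APC alone, where the cut of 5.07 need not mean the same. RNA quality, read as the actin control's 3' level minus its 5' level, also differed, at 0.74 to 0.99 there, 0.05 to 0.11 for HA and 0.12 to 0.28 for PBAB. Although their label names CD4+ T cells, the median of 13 T cell markers was 6.47 to 7.77 there, below the 10.43 to 11.32 of HA and the 10.48 to 11.10 of PBAB. The median of 19 macrophage and monocyte markers was 8.61 to 9.59 in APC alone, but 4.90 to 6.89 under HA and 4.54 to 5.00 under PBAB. Of these 19 markers, 18 were above 5.07 in each APC alone array, 9 to 15 in HA arrays and 5 to 9 in PBAB arrays. B cell markers had medians of 6.59 to 6.77 in APC alone, but 4.83 to 5.35 under HA and 4.89 to 5.24 under PBAB. Neutrophil markers had medians of 6.23 to 6.84 in APC alone, 4.58 to 5.26 under HA and 4.72 to 5.20 under PBAB. For dendritic cell markers these were 6.10 to 6.43, 5.06 to 5.60 and 5.10 to 5.45. APC alone therefore had high macrophage markers and low T cell markers in all 3 cultures.

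Between the activations, Ccl6 was called lower in PBAB in all 3 cultures, Ccl9 lower in Th9 and Th17, and Ccl4 higher in Th1 and Th9. The Ccl6 call in Th1 and both Ccl4 calls ended when single arrays were left out, as given below. A second Ccl6 probe set differed by 0.09 in Th1. Differences are PBAB minus HA in log2 units ± SE from a limma fit, with n = 2 arrays per group, and are called at a Benjamini-Hochberg adjusted p under 0.05 over 15498 genes. Because members and lists were chosen with earlier results known, the shares of all genes beside their counts are context. An excess over such a share is not a test of the members, here or in later contrasts. In Th1, 4 of the 10 members were called, Ccl3 and Ccl4 higher and Ccl6 and Cxcl10 lower, where 14.6% of all genes tested were called (5.22% higher and 9.4% lower; after another quantile normalization the split over all genes was 1130 higher and 1280 lower, against 809 and 1457). In Th9, 4 were called, Ccl4 higher and Ccl6, Ccl9 and Ccl22 lower, against 13.7% of all genes (7.39% higher and 6.32% lower). In Th17, 4 were called, Ccl3, Ccl6, Ccl9 and Cxcl9, all lower, against 17.1% of all genes (6.66% higher and 10.4% lower). With the replicate number as a block all 10 members were called in Th17, and 30.4% of all genes. Averaged over the cultures, 6 members were called, Ccl4 higher and Ccl6, Ccl9, Ccl22, Cxcl9 and Cxcl10 lower, against 30.6% of all genes (13.2% higher and 17.3% lower). The median difference of the members was -0.32 in Th1, -0.15 in Th9 and -1.0 in Th17, where the median of all genes was 0.03, 0.01 and 0.00.

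The differences between cultures were tested as contrasts of their own. In Th17 against Th1, 3 members were called, Ccl3, Ccl4 and Ccl9, all with a lower difference in Th17, against 3.53% of all genes (1.38% lower). In Th9 against Th1, Ccl9 was the 1 member called, against 1.37% of all genes (0.426% lower), and in Th17 against Th9 there were 2, Ccl3 and Ccl4, against 1.71% (1.1% lower; 94 genes higher and 171 lower, or 137 and 158 after another quantile normalization). With the replicate block these counts were 5 in Th17 against Th1, with 11.8% of all genes called, 3 in Th9 against Th1, with 4.77%, and 2 in Th17 against Th9, with 9.52%.

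**Figure D1:**
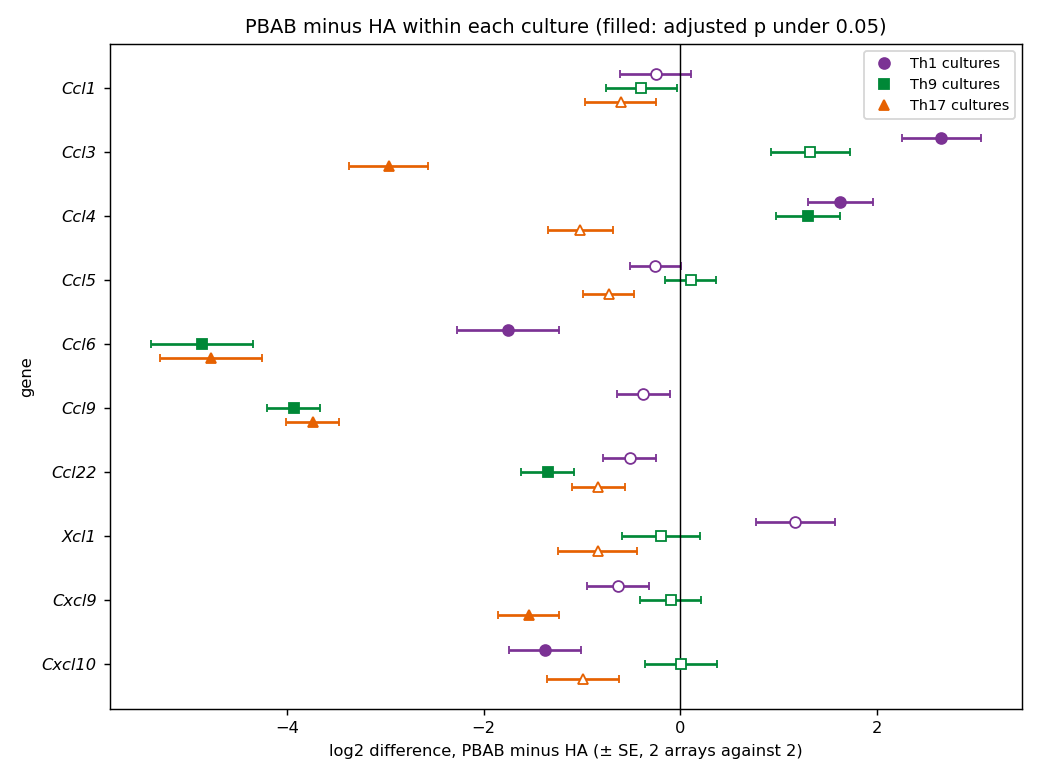
PBAB-minus-HA difference in log2 units of each member in Th1, Th9 and Th17 cultures, with bars of ± SE from the limma fit. Filled points are called at an adjusted p under 0.05. Ccl3 lies at 2.65 in Th1 and -2.97 in Th17, and Ccl6 is below 0 in all 3 cultures.

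Ccl6 and Ccl9, a pair of myeloid CC chemokines that bind the receptor Ccr1, were high in APC alone and low in PBAB, the activation whose protocol names no splenocytes. Ccl6 was at 10.27, 13.75 and 11.66 in the APC alone arrays of Th1, Th9 and Th17. In HA it was 5.48 and 5.82 in Th1, 9.48 and 9.16 in Th9 and 8.25 and 9.95 in Th17. In PBAB it was 4.11 and 3.68, 4.81 and 4.10, and 3.75 and 4.92. All 6 PBAB arrays were thus below 5.07, all HA and APC alone arrays were above it, and the HA and PBAB arrays did not overlap in any culture. The PBAB-minus-HA difference was -4.86 ± 0.52 in Th9 (adjusted p = 0.000331) and -4.77 ± 0.52 in Th17 (adjusted p = 0.000423). Among the 15498 genes tested these were the 6th lowest difference in Th9 and the 4th lowest in Th17. In Th1 the difference was -1.75 ± 0.52, adjusted p = 0.0473, a call that ended without the filter (adjusted p = 0.0513) and without any 1 of 8 arrays, the 4 of Th1 and the 4 of Th9 (adjusted p = 0.0541 to 0.227). A second Ccl6 probe set differed by 0.09 in Th1, -2.60 in Th9 and -2.44 in Th17, and with the mean of both the Th1 difference was -0.83 (adjusted p = 0.262). Because the PBAB means lie below 5.07, these differences are given without a fold.

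Ccl9 was at 6.78, 10.86 and 7.95 in APC alone of Th1, Th9 and Th17. Under HA its levels were 5.87 and 6.15 in Th1, 8.81 and 8.14 in Th9 and 8.53 and 8.91 in Th17. Under PBAB they were 5.42 and 5.85, 4.53 and 4.55, and 5.25 and 4.71. Among the 6 HA arrays those of Th1 were thus the lowest, among the 6 PBAB arrays they were the highest, and in Th17 the HA arrays were above the APC alone array. The PBAB-minus-HA difference was -3.93 ± 0.27, adjusted p = 2.81e-05 in Th9 and -3.74 ± 0.27, adjusted p = 5.45e-05 in Th17. In Th1 it was -0.38 ± 0.27, adjusted p = 0.426, with a 95% interval of -0.97 to 0.22. The difference between cultures was itself called, at -3.56 ± 0.38, adjusted p = 0.00204 for Th9 against Th1 and -3.36 ± 0.38, adjusted p = 0.00174 for Th17 against Th1. The second Ccl9 probe set gave -0.50 in Th1, -2.95 in Th9 and -4.08 in Th17. No fold is given for Th9 and Th17, whose PBAB means lie below 5.07.

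For Ccl6 the same contrasts between cultures, -3.11 ± 0.73 in Th9 against Th1 and -3.01 ± 0.73 in Th17 against Th1, missed the threshold (adjusted p = 0.0764 and 0.0529). They passed it when the replicate number was fitted as a block (adjusted p = 0.027 and 0.0173). The first was also called without either of the Th17 HA arrays (adjusted p = 0.0258 and 0.0257). The second was called without Th17 HA 1 (-3.87, adjusted p = 0.0121), with array weights and with the mean of the probe sets. On average over the cultures the PBAB-minus-HA differences were -3.79 ± 0.30, adjusted p = 1.23e-05 for Ccl6 and -2.68 ± 0.16, adjusted p = 2.03e-06 for Ccl9. The SE and p-values of such averages reflect the spread between replicates, not the spread between cultures. Over the 12 HA and PBAB arrays the levels of Ccl6 and Ccl9 correlated at 0.93, a description of arrays that share cultures. Macrophage markers differed between the activations as follows: of 18 tested, 1 was higher and 1 lower in PBAB in Th1, 1 higher and 6 lower in Th9, and none higher and 10 lower in Th17, with median differences of -0.07, -0.70 and -1.41. The difference itself was lower in Th17 than in Th1 for 9 of the 18 markers, and in Th9 against Th1 none was called. The part of these markers in the Ccl6 and Ccl9 differences was not tested.

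Ccl6 and Ccl9 are neighbours on chromosome 11 in RefSeq, between Ccl5 and Ccl3. Their sequences upstream of the start are shown because the 2 genes moved together. The bases in capitals are the 17 aligned columns that the 250 bases before each start share, of which 16 are identical; this was the best local match among the 28 pairs of the 8 members with an upstream sequence in RefSeq (GRCm38.p6). The coordinates are chr11:83593088-83593337 for Ccl6 and chr11:83578637-83578886 for Ccl9, both on the minus strand and written 5′ to 3′. The shared stretch lies 59 to 43 bases before the start in Ccl6 and 18 to 2 bases before it in Ccl9.
Ccl6: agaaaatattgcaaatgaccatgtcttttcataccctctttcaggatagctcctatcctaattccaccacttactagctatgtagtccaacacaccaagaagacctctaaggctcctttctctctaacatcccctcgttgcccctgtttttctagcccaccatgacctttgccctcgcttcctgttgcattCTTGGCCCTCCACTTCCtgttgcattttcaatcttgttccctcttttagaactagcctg
Ccl9: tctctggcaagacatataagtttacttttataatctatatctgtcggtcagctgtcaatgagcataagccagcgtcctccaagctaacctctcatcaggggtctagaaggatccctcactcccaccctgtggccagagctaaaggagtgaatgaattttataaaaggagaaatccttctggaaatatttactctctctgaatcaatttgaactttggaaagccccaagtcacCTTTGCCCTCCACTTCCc

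Ccl3 and Ccl4, also known as MIP-1alpha and MIP-1beta and made by activated lymphocytes and macrophages, were higher in PBAB in Th1 and differed between cultures. Ccl3 was at 7.79 and 7.94 in Th1 HA and at 10.33 and 10.70 in Th1 PBAB. In Th9 it was 4.95 and 5.95 under HA and 6.48 and 7.06 under PBAB. In Th17 it was 6.65 and 7.87 under HA and 4.31 and 4.28 under PBAB. PBAB arrays were above HA arrays in Th1 and Th9 and below them in Th17, with no overlap in any of the 3. APC alone arrays were at 6.35, 5.85 and 6.65 in Th1, Th9 and Th17, below all 4 activated arrays in Th1, below PBAB in Th9 and above PBAB in Th17.

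Ccl3 rose 6.29-fold in PBAB of Th1 cultures (2.65 ± 0.40, adjusted p = 0.00182) and was lower in PBAB of Th17 cultures (-2.97 ± 0.40, adjusted p = 0.00101). In Th9 the difference of 1.32 ± 0.40 missed the threshold (adjusted p = 0.0555) and passed it with the replicate block (adjusted p = 0.00362), with each array centred on its median (0.0468) and when Th9 HA 2 or either Th17 HA array was left out (0.0244 to 0.0374). Without Th9 HA 1 it was 0.82 (adjusted p = 0.298). The PBAB-minus-HA difference of Th17 less that of Th1 was -5.62 ± 0.57 (adjusted p = 0.00135), the lowest value of that contrast among the 15498 genes tested. Less that of Th9 it was -4.29 ± 0.57, adjusted p = 0.00695. Averaged over the cultures, opposite signs left 0.33 ± 0.23 (adjusted p = 0.339).

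Ccl4 was at 9.55 and 8.48 in Th1 HA and 10.70 and 10.58 in Th1 PBAB. Its Th9 levels were 7.35 and 7.81 under HA and 8.92 and 8.84 under PBAB. Its Th17 levels were 7.73 and 8.21 under HA and 6.69 and 7.21 under PBAB. The order of the 2 activations was that of Ccl3 in each culture, but Ccl4 stayed above 5.07 in all 15 arrays. APC alone arrays were at 8.42, 7.77 and 8.51.

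Ccl4 was higher in PBAB by 3.09-fold in Th1 (1.63 ± 0.33, adjusted p = 0.00814) and 2.46-fold in Th9 (1.30 ± 0.33, adjusted p = 0.0245). The Th1 call ended without Th1 HA 2 (1.09, adjusted p = 0.0592) or Th1 PBAB 1 (1.57, adjusted p = 0.0506), and the Th9 call without any 1 of the 4 HA and PBAB arrays of Th9 (adjusted p = 0.0535 to 0.142). In Th17 the difference was -1.02 ± 0.33 (adjusted p = 0.0593; adjusted p = 0.0316 with the replicate block, and 0.0189 without Th1 HA 1 or Th1 HA 2). The average over the cultures, 0.64 ± 0.19, adjusted p = 0.0263, was not called when Th1 PBAB 1, Th9 HA 1, Th17 HA 1, Th9 PBAB 1 or Th17 PBAB 2 was left out (adjusted p = 0.0583 to 0.0791). The difference between Th17 and Th1 was -2.64 ± 0.46, adjusted p = 0.0141, and was not called without Th1 PBAB 1, Th17 HA 2 or Th17 PBAB 1 (adjusted p = 0.0534 to 0.067). Between Th17 and Th9 it was -2.31 ± 0.46, adjusted p = 0.0372, not called after another quantile normalization (adjusted p = 0.0521) or without any 1 of 9 arrays: Th1 PBAB 1 and 2, the 4 of Th9, Th17 HA 2, and Th17 PBAB 1 and 2 (adjusted p = 0.0585 to 0.147). Over the 12 HA and PBAB arrays Ccl3 and Ccl4 correlated at 0.93.

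**Figure D2:**
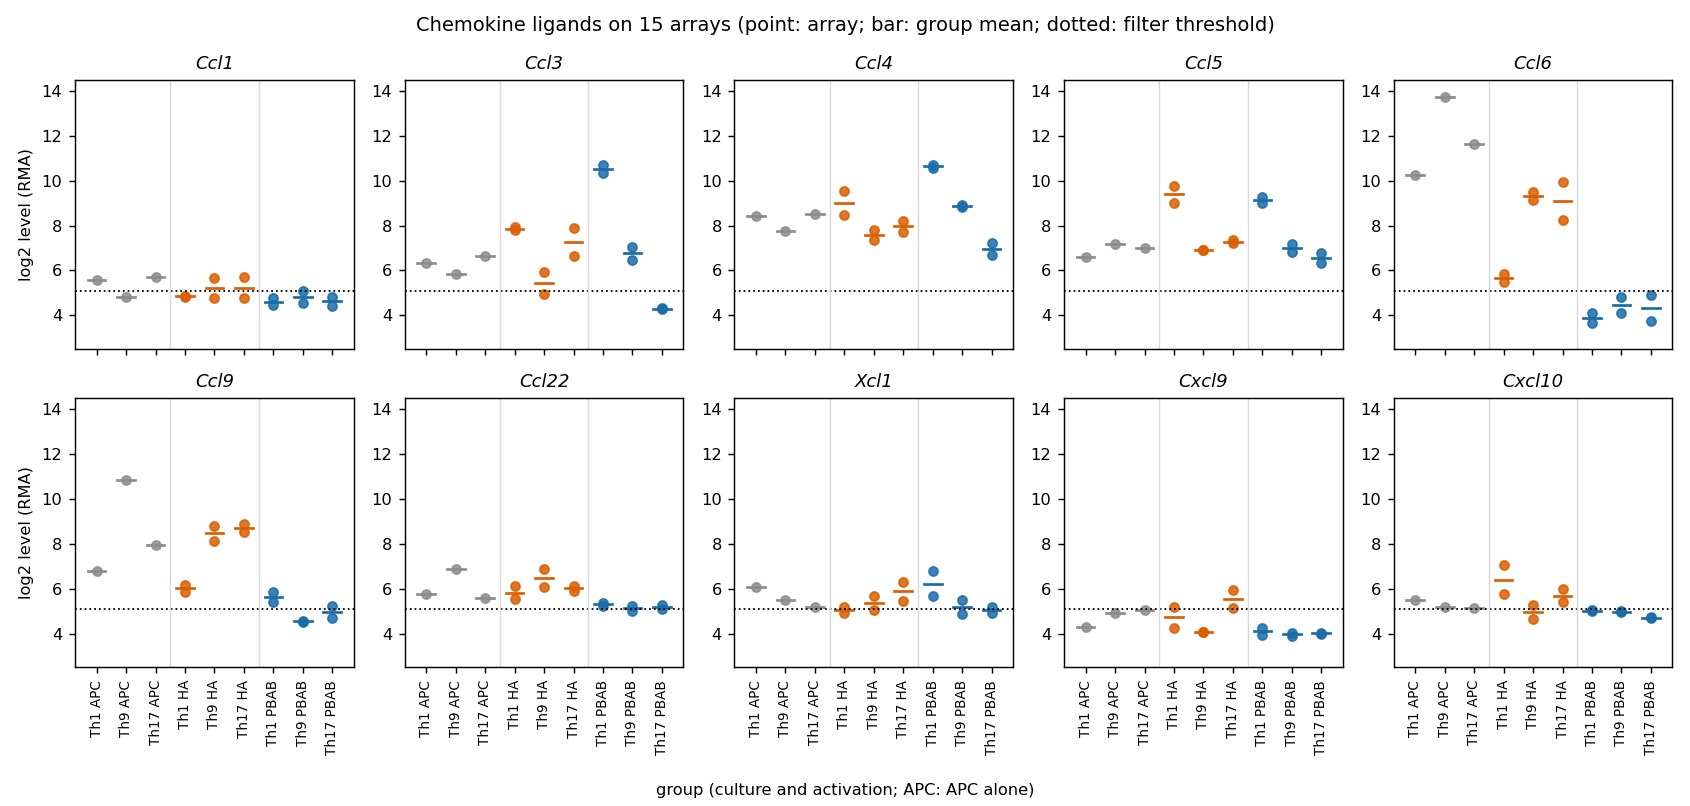
Log2 level of each of the 10 members in every array, by group. Points are arrays, bars are group means, and the dotted line marks the threshold of 5.07. Ccl3 runs from 10.33 and 10.70 in Th1 PBAB down to 4.31 and 4.28 in Th17 PBAB, and Ccl5 is above 8.98 in the 4 Th1 HA and PBAB arrays only.

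Under PBAB the lineages were ordered Th1, Th9, Th17 in both genes. Ccl3 was 13.4-fold lower in Th9 than in Th1 (-3.74 ± 0.40, adjusted p = 0.000926). In Th17 it was below Th1 (-6.22 ± 0.40, adjusted p = 1.75e-05, the third lowest difference among the genes tested) and below Th9 (-2.47 ± 0.40, adjusted p = 0.00508). Ccl4 was 12.9-fold lower in Th17 than in Th1 (-3.69 ± 0.33, adjusted p = 0.000114) and lower than in Th9 (-1.93 ± 0.33, adjusted p = 0.00639), a call that ended without Th17 PBAB 1 (adjusted p = 0.0617). Its difference of Th9 from Th1, -1.76 ± 0.33, adjusted p = 0.0213, was not called without any 1 of the 4 arrays compared (adjusted p = 0.102 to 0.15). Under HA the order was another one for Ccl3, with Th17 above Th9 by 1.81 ± 0.40, adjusted p = 0.0291, a call that ended when Th9 HA 1, Th17 HA 2 or either Th17 PBAB array was left out (adjusted p = 0.0512 to 0.202; 1.21 without Th17 HA 2). Th9 HA was below Th1 HA for Ccl3 (-2.41 ± 0.40, adjusted p = 0.00567) and for Ccl4 (-1.43 ± 0.33, adjusted p = 0.0296), the latter not called without Th1 HA 1, Th9 HA 1 or Th9 HA 2 (adjusted p = 0.0635 to 0.18; -0.90 without Th1 HA 1). Ccl4 in Th17 HA relative to Th1 HA was -1.05 ± 0.33, not called (adjusted p = 0.0953) except with the replicate block (adjusted p = 0.0476) and without Th1 HA 2 (0.0152), and it was -0.52 without Th1 HA 1 (adjusted p = 0.524).

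CD8 and gamma-delta T cells also make these ligands. Their 3 markers on the array had medians of 6.79 to 9.05 in HA, 4.64 to 7.46 in PBAB and 5.21 to 5.69 in APC alone. NK cell markers, 4 on the array, had medians of 4.65 to 5.29 in HA and 4.61 to 5.06 in PBAB. Of the 3 CD8 and gamma-delta markers, 2 were lower in PBAB in Th1, 1 in Th9 and 1 in Th17, none of them higher. Their part in the Ccl3 and Ccl4 differences was not tested.

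Ccl5, known as RANTES, a late product of activated T cells that binds Ccr1 and Ccr3, was highest in the Th1 cultures under either activation. It was at 9.02 and 9.77 in Th1 HA and 9.29 and 8.99 in Th1 PBAB. In Th9 it was 6.90 and 6.89 under HA and 6.82 and 7.18 under PBAB, and in Th17 7.35 and 7.23 under HA and 6.78 and 6.34 under PBAB. The 4 activated Th1 arrays were above all 11 other arrays, APC alone at 6.61, 7.18 and 7.02 included. Under HA, Ccl5 was 5.65-fold lower in Th9 than in Th1 (-2.50 ± 0.26, adjusted p = 0.00024), and it was also lower in Th17 (-2.10 ± 0.26, adjusted p = 0.000613). Under PBAB the differences from Th1 were -2.14 ± 0.26 in Th9 (adjusted p = 0.00163) and -2.58 ± 0.26 in Th17 (adjusted p = 0.000211), the latter 5.97-fold. Within Th1 the activations differed by -0.26 ± 0.26 (adjusted p = 0.593), with a 95% interval of -0.83 to 0.31. In Th17 the PBAB-minus-HA difference was -0.73 ± 0.26, not called (adjusted p = 0.0811), and it was called with the replicate block (adjusted p = 0.0428) or without Th1 HA 1 or Th1 HA 2 (0.0396 each). The average over the cultures, -0.29 ± 0.15, adjusted p = 0.177, was called without Th1 HA 1 (-0.42, adjusted p = 0.0365).

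Xcl1, or lymphotactin, the ligand of the dendritic cell receptor Xcr1, had its highest level in 1 Th1 PBAB array. It was at 4.92 and 5.17 in Th1 HA and 5.66 and 6.77 in Th1 PBAB. Levels in Th9 were 5.05 and 5.69 under HA and 4.85 and 5.49 under PBAB, and in Th17 5.46 and 6.32 and 4.91 and 5.20. Replicate 2 was the higher array in all 6 activated groups. The PBAB-minus-HA difference was not called in Th1 (1.17 ± 0.40, adjusted p = 0.081), Th9 (-0.20 ± 0.40, adjusted p = 0.855) or Th17 (-0.84 ± 0.40, adjusted p = 0.201). With the replicate block it was called in Th1 (adjusted p = 0.0013) and in Th17 (0.00769), and without Th1 PBAB 1 it was 1.73 in Th1 (adjusted p = 0.0317), but 0.61 without Th1 PBAB 2 (adjusted p = 0.499). The block also gave calls for the contrast of that difference with Th1, at -1.37 in Th9 (adjusted p = 0.0184) and -2.01 in Th17 (0.00157).

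Cxcl9 and Cxcl10, interferon-induced ligands of the receptor Cxcr3, were low in most arrays. Cxcl10 passed 5.07 in 8 of 15 arrays and Cxcl9 in 3. Cxcl10 was at 5.76 and 7.04 in Th1 HA and 5.0 and 5.04 in Th1 PBAB. In Th9 it was 4.66 and 5.28 under HA and 4.95 and 5.0 under PBAB, and in Th17 5.39 and 6.0 under HA and 4.69 and 4.72 under PBAB. In Th1 and Th17 both HA arrays were above both PBAB arrays, and in Th9 they overlapped. Cxcl10 was lower in PBAB of Th1 (-1.38 ± 0.37, adjusted p = 0.0302). The call ended without Th1 HA 2, the array with the highest level (-0.73, adjusted p = 0.199), and without Th1 PBAB 1 or Th1 PBAB 2 (0.115 and 0.12). In Th17 the difference was -0.99 ± 0.37 (adjusted p = 0.0975; adjusted p = 0.0167 with the replicate block, and 0.0226 without Th1 HA 1 or Th1 HA 2). Averaged over the cultures it was -0.79 ± 0.21, adjusted p = 0.0164. Under HA, Th9 relative to Th1 was -1.43 ± 0.37, adjusted p = 0.0506, and was called with the replicate block (adjusted p = 0.00524), after centring or another quantile normalization, on the 12 HA and PBAB arrays alone, and without Th1 HA 1 (-2.08, adjusted p = 0.00444), but was -0.79 without Th1 HA 2 (adjusted p = 0.276). Th17 relative to Th1 under HA was -0.71 ± 0.37, adjusted p = 0.378, with values from -1.35 without Th1 HA 1 (adjusted p = 0.0342) to -0.06 without Th1 HA 2 (adjusted p = 0.986). The PBAB-minus-HA difference of Th9 less that of Th1 was 1.39 ± 0.52, adjusted p = 0.32, with values from 0.74 without Th1 HA 2 to 2.03 without Th1 HA 1 (adjusted p = 0.0417).

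Cxcl9 was above 5.07 in Th1 HA 1 (5.19) and in Th17 HA 1 and 2 (5.13 and 5.97). The 6 PBAB arrays were between 3.91 and 4.23, and APC alone arrays were at 4.27, 4.90 and 5.05. Cxcl9 was lower in PBAB of Th17 (-1.54 ± 0.31, adjusted p = 0.00738) and on average over the cultures (-0.76 ± 0.18, adjusted p = 0.00842). It passed the filter only through the 3 HA arrays named, so these calls rest on the group that let it be tested. The Th17 PBAB mean was 4.01, and the averaged means were 4.78 under HA and 4.02 under PBAB. All of these lie below 5.07 and are not told from background. Without Th17 HA 2 the difference was -1.13 (adjusted p = 0.0699), and without Th17 PBAB 2 -1.51 (0.0503). The second Cxcl9 probe set differed by -0.15 in Th17. Th17 HA was above Th9 HA by 1.48 ± 0.31, adjusted p = 0.023, not called without Th9 HA 1, Th9 HA 2 or Th17 HA 2 (adjusted p = 0.108 to 0.173). Relative to Th1 HA it was 0.82 ± 0.31, adjusted p = 0.176, with values from 0.36 without Th1 HA 2 (adjusted p = 0.752) to 1.29 without Th1 HA 1 (adjusted p = 0.0443).

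The Cxcl10 upstream sequence is shown as that of the member with the most matches to motifs of interferon and NF-kappa B signalling. In chr5:92348890-92349139 of GRCm38.p6 (RefSeq), on the minus strand and written 5′ to 3′, the capitals mark a match to the interferon-stimulated response element core (a pair of GAAA with 2 bases of any kind between) at 213 bases before the start, and matches to the kappa B motif at 159 and 103 bases before it.
Cxcl10: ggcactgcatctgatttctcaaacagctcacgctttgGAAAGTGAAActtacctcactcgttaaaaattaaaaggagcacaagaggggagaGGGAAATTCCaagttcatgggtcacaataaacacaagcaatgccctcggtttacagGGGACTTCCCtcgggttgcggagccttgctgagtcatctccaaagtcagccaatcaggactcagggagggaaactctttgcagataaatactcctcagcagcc
Both strands of the 250 bases were searched in the 8 members, for these and for the STAT motif, TTC and GAA with 3 bases between, and the STAT6 motif, with 4 between. The only other match was a kappa B match in Ccl9 at 35 bases before the start. Among 32841 promoters of the same length, 2.98% held the response element core, 3.90% the kappa B motif, 7.02% the STAT motif and 5.85% the STAT6 motif. These matches describe the letters and say nothing of binding.

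Ccl22, made by dendritic cells and macrophages and bound by Ccr4 on T cells, was lower in PBAB of Th9 cultures. It was at 6.88 and 6.06 in Th9 HA and 5.01 and 5.24 in Th9 PBAB. Levels in Th1 were 6.11 and 5.52 under HA and 5.25 and 5.36 under PBAB, and in Th17 6.11 and 5.92 and 5.10 and 5.26. HA arrays were above PBAB arrays in all 3 cultures without overlap. Ccl22 was 2.55-fold lower in PBAB of Th9 (-1.35 ± 0.27, adjusted p = 0.0087), a call that ended without Th9 HA 1 (-0.94, adjusted p = 0.0529) or Th9 PBAB 1 (-1.24, adjusted p = 0.0633). In Th1 and Th17 it was -0.52 ± 0.27, adjusted p = 0.258, and -0.84 ± 0.27, adjusted p = 0.06, the latter called with the replicate block (adjusted p = 0.0217). It was also called there after another quantile normalization, with array weights, and without any 1 of the HA arrays of Th1 and Th9 (adjusted p = 0.0244 to 0.0483). Averaged over the cultures it was 1.87-fold lower (-0.90 ± 0.16, adjusted p = 0.00137).

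Ccl1, a T cell product that binds Ccr8, was above 5.07 in 5 of 15 arrays. The highest were 5.73 in Th17 HA 2, 5.72 in Th17 APC alone, 5.66 in Th9 HA 2 and 5.57 in Th1 APC alone. The PBAB-minus-HA difference was -0.25 ± 0.36, -0.40 ± 0.36 and -0.60 ± 0.36 in Th1, Th9 and Th17, with no call (adjusted p = 0.723, 0.599 and 0.329), except with the replicate block in Th17 (0.0497). The average, -0.42 ± 0.21, adjusted p = 0.172, was called with the block (adjusted p = 0.0158) and without Th17 HA 1 (-0.58, adjusted p = 0.049).

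Between the lineages, Ccl5 was lower in Th9 and Th17 than in Th1, and Ccl6 and Ccl9 were higher there under HA. Under HA, 5 of the 10 members were called in Th9 against Th1, where 5.34% of all genes were: Ccl3, Ccl4 and Ccl5 lower, Ccl6 and Ccl9 higher. Ccl6 was 12.7-fold higher in Th9 than in Th1 (3.67 ± 0.52, adjusted p = 0.00199) and Ccl9 5.5-fold higher (2.46 ± 0.27, adjusted p = 0.000354). In Th17 against Th1, 3 were called, against 6.9% of all genes: Ccl5 lower, Ccl6 10.9-fold higher (3.45 ± 0.52, adjusted p = 0.00235) and Ccl9 6.52-fold higher (2.70 ± 0.27, adjusted p = 0.000162). With the replicate block there were 5, and 15.3% of all genes, with Ccl4 and Xcl1 added (adjusted p = 0.0476 and 0.0144). In Th17 against Th9, Ccl3 and Cxcl9 were called, 2 of 10, against 4.77% of all genes. Macrophage markers had HA medians of 4.90 and 5.19 in Th1, 5.72 and 5.20 in Th9, and 6.89 and 6.81 in Th17. Their part in the Ccl6 and Ccl9 order between lineages was not tested.

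Under PBAB the members called between lineages were Ccl3, Ccl4 and Ccl5. Ccl3, Ccl4 and Ccl5 were called in Th9 against Th1, 3 of 10, where 2.16% of all genes were called (0.903% lower), and the same 3 in Th17 against Th1, where 6.99% were (3.13% lower). In Th17 against Th9 there were 2, Ccl3 and Ccl4, against 6.37% (3.74% lower). Every one of these differences was lower in the lineage named first. With the replicate block there were 5 in Th9 against Th1, and 5.56% of all genes, with Ccl9 at -1.10 (adjusted p = 0.0317) and Xcl1 at -1.04 (0.0102). Xcl1 was also called in Th17 against Th1 (-1.16, adjusted p = 0.00243).

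Ordered by level over the 9 groups, neighbours were set apart where they differed by more than 2 SE. Th1 PBAB was apart from all other groups for Ccl3 and Ccl4, at means of 10.51 and 10.64, and Th17 PBAB was apart from the group above it for Ccl3. For Ccl5, Th1 HA and Th1 PBAB did not stand apart from each other and were apart from the rest. For Ccl6 and Ccl9, Th9 APC alone was highest and apart from the next group, and the PBAB groups were lowest. Ccl1, Ccl22, Xcl1, Cxcl9 and Cxcl10 had no neighbours apart.

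The APC alone arrays, high in macrophage markers, were set against both activations, with 1 array per culture. Differences from them, averaged over the 3 cultures, cover 6 arrays against 3, and most of the array differed: 90.7% of all genes were called in HA and 89.8% in PBAB, with a median over all genes of 0.36 and 0.31. These differences cross the unequal scales of values described above. Their SE and p-values come from the spread between HA and PBAB replicates, since 1 array per APC alone group shows no spread. They do not measure the spread among APC alone arrays or between cultures. Of the members, 3 were called in HA, Ccl5 higher and Ccl6 and Ccl9 lower, and 8 in PBAB, Ccl3, Ccl4 and Ccl5 higher and Ccl1, Ccl6, Ccl9, Ccl22 and Cxcl9 lower. Lower calls were common among the 20 other chemokine ligands tested, which are described below. In HA 2 of them were higher and 16 lower (median difference -1.32), and in PBAB 1 was higher and 19 lower (-1.54). Over all 15498 genes tested, 6383 were called lower in HA and 6364 in PBAB. Ccl6 was 14.6-fold lower in HA (-3.87 ± 0.37, adjusted p = 1.62e-06) and lower in PBAB (-7.66 ± 0.37, adjusted p = 7.73e-09), the third lowest of the genes tested. Ccl9 was lower in PBAB (-3.48 ± 0.19, adjusted p = 2.01e-08, or -2.06 without Th9 APC alone) and in HA (-0.80 ± 0.19, adjusted p = 0.00211), where it was -1.58 without Th17 APC alone and the call ended after centring (adjusted p = 0.0995) and without Th9 APC alone (0.00, adjusted p = 0.998). Ccl3 in HA was 0.57 ± 0.28, adjusted p = 0.078, called with the replicate block (adjusted p = 0.0116), after centring, and without Th9 APC alone, Th9 HA 1 or Th17 HA 1. After another quantile normalization, 3 members not called in HA gained a call in the limma fit. These were Ccl4 (-1.62, adjusted p = 3.71e-05), Cxcl9 (0.70, adjusted p = 0.00761) and Cxcl10 (0.98, adjusted p = 0.00197).

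Several of these calls changed when the APC alone array of 1 culture was left out. That also takes the HA and PBAB arrays of the culture out of the average, so the array and its culture cannot be told apart here. Ccl5 was higher in HA by 0.92 ± 0.18, adjusted p = 0.000552, and was -0.01 (adjusted p = 0.972) without Th1 APC alone, since that also removes the Th1 cultures from the average. Without that array the PBAB differences turned negative and were not called, Ccl3 from 0.91 ± 0.28 to -0.72, Ccl4 from 0.59 ± 0.23 to -0.23 and Ccl5 from 0.63 ± 0.18 to -0.32. Ccl4 also turned to -1.01 after another quantile normalization, and was not called without Th9 APC alone, Th1 PBAB 1, Th9 PBAB 1 or Th17 PBAB 2 (adjusted p = 0.0565 to 0.293). Without Th17 APC alone the PBAB values were 2.54 for Ccl3, 1.66 for Ccl4 and 1.18 for Ccl5, which in HA reached 1.53 without Th9 APC alone. Another quantile normalization also ended both Ccl5 calls (adjusted p = 0.137 in HA and 0.673 in PBAB). Within cultures, PBAB relative to APC alone was 4.16 in Th1, 0.92 in Th9 and -2.36 in Th17 for Ccl3, and 2.22, 1.11 and -1.56 for Ccl4. Ccl5 was 2.53, -0.18 and -0.46. Ccl6 was -6.37, -9.29 and -7.32, and Ccl9 -1.14, -6.32 and -2.97. Ccl3 and Ccl4 were thus above the APC alone array in Th1 and Th9 PBAB and below it in Th17, and Ccl6 and Ccl9 below it in all 3. In PBAB the calls of Ccl22 (-0.88 ± 0.19, adjusted p = 0.00114), Cxcl9 (-0.72 ± 0.22, adjusted p = 0.0097) and Ccl1 (-0.68 ± 0.26, adjusted p = 0.0259) ended without Th9 APC alone for the first, without Th9 or Th17 APC alone for the second, and without Th1 or Th17 APC alone or PBAB 1 of any culture for the third. The adjusted p without these arrays was 0.107 for Ccl22 (a difference of -0.43), 0.0547 to 0.0738 for Cxcl9 and 0.0539 to 0.167 for Ccl1, whose difference was -1.03 without Th9 APC alone. Ccl1 and Cxcl9 were also not called after centring or another quantile normalization. Both means of Cxcl9, 4.74 in APC alone and 4.02 in PBAB, lie below 5.07.

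**Figure D3:**
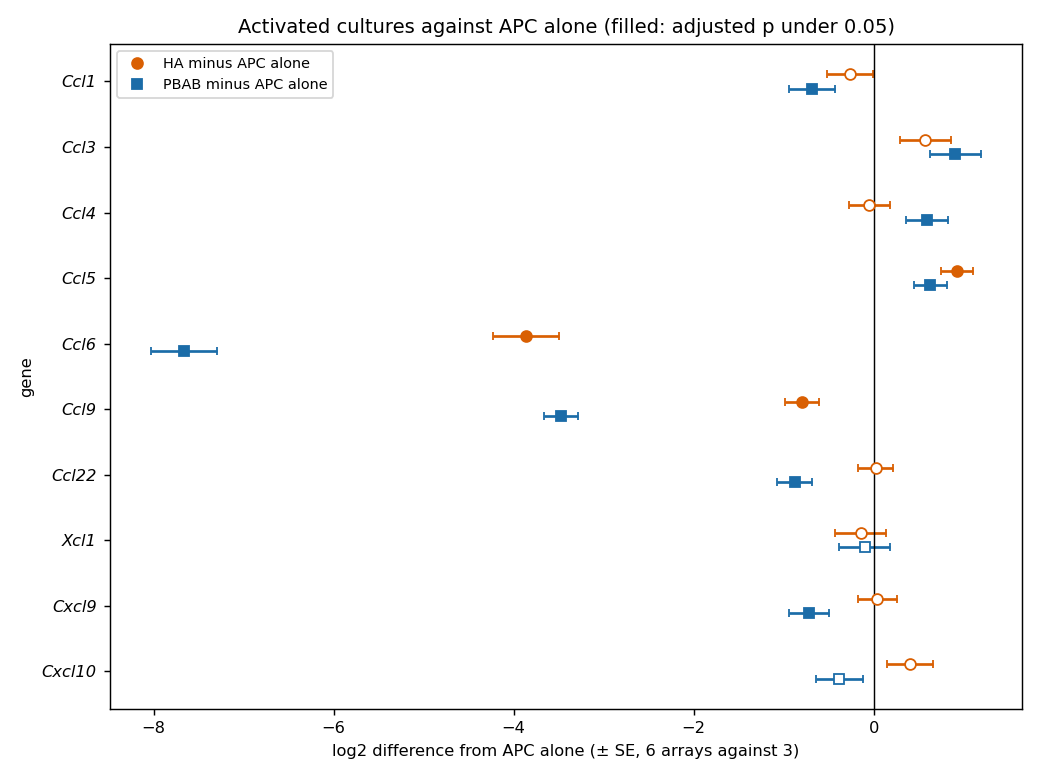
Differences of HA and of PBAB from APC alone in log2 units, for each member. Ccl6 in PBAB lies below all other members.

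The receptors of the members were read from the same arrays. Of 23 chemokine receptors listed, 21 were on the array and 20 were tested, and in PBAB 2 were higher and 5 lower in Th1, 2 higher and 2 lower in Th9, and 2 higher and 2 lower in Th17. The shares of all genes called in these cultures were 14.6%, 13.7% and 17.1%. Ccr1, a receptor of Ccl3, Ccl5, Ccl6 and Ccl9, was at 7.53 and 7.11 in Th1 HA and 5.11 and 5.43 in Th1 PBAB. Its Th9 levels were 6.97 and 6.91 under HA and 4.84 and 4.61 under PBAB, and its Th17 levels 6.59 and 6.60, and 4.77 and 5.17. It was lower in PBAB in every culture, with differences of -2.05 ± 0.20, adjusted p = 0.000164 in Th1, -2.22 ± 0.20, adjusted p = 0.000127 in Th9 and -1.62 ± 0.20, adjusted p = 0.000725 in Th17. Macrophages also carry Ccr1, which was at 6.56, 8.98 and 8.85 in APC alone of Th1, Th9 and Th17.

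Ccr8, the receptor of Ccl1, is carried by Th2 cells and regulatory T cells. It was higher in PBAB in Th1 (1.35 ± 0.26, adjusted p = 0.0068) and Th17 (1.70 ± 0.26, adjusted p = 0.00193) and not called in Th9 (0.46 ± 0.26, adjusted p = 0.335), where it was highest, at 9.17 and 8.38 under HA and 9.24 and 9.22 under PBAB. Cxcr3, the Th1 cell receptor of Cxcl9 and Cxcl10, was lower in PBAB of Th1 (-3.21 ± 0.47, adjusted p = 0.00153), from 9.39 and 10.63 to 6.84 and 6.76. In Th9 it was -0.94 ± 0.47, adjusted p = 0.253 and in Th17 -0.90 ± 0.47, adjusted p = 0.253, and the differences of these from Th1 were not called (2.27 ± 0.67, adjusted p = 0.177, and 2.31 ± 0.67, adjusted p = 0.0997). Ccr4, the receptor of Ccl22, was not called in any culture, with differences of -0.54 ± 0.21, 0.18 ± 0.21 and -0.14 ± 0.21. Ccr3 and Xcr1 had means below 5.07 in all HA and PBAB groups.

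**Figure D4:**
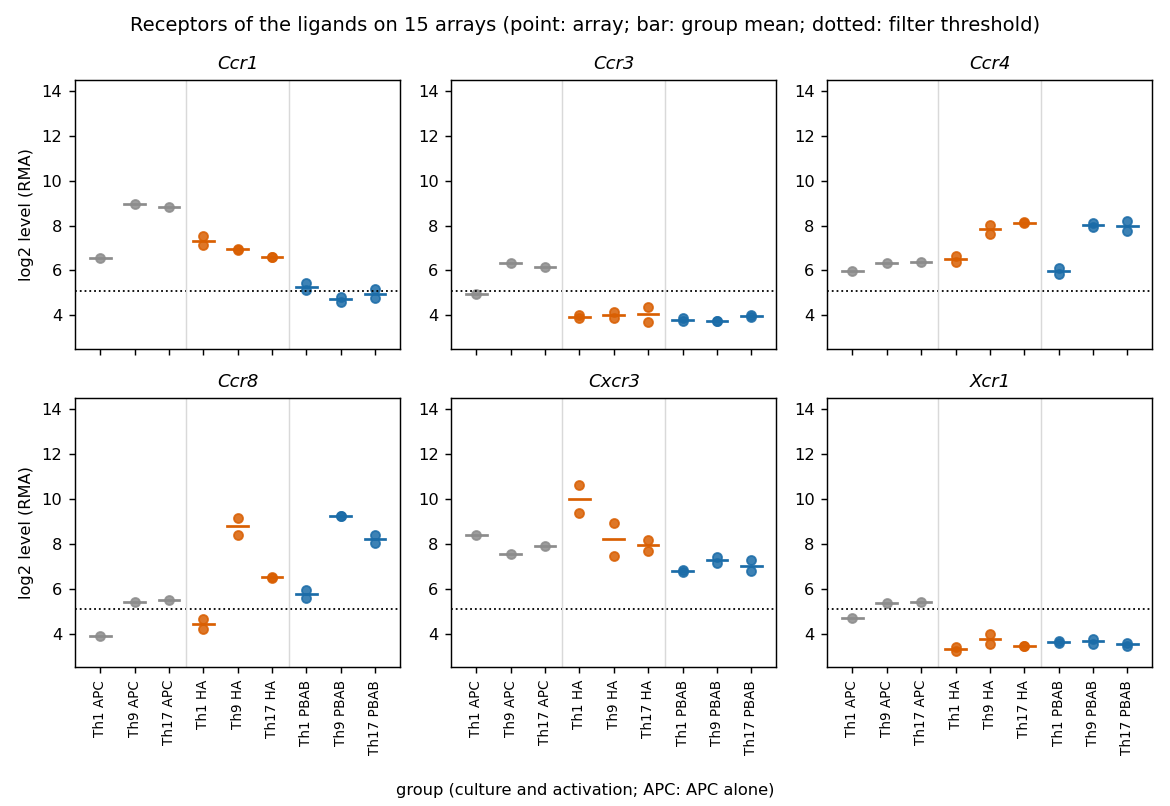
Log2 level in every array of the members' receptors on the array, by group. Points are arrays, bars group means and the dotted line the threshold of 5.07. Ccr1 is lower in PBAB than in HA in all 3 cultures, and Cxcr3 is highest in Th1 HA at 9.39 and 10.63.

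The other chemokine ligands that were called in a culture were all lower in PBAB. Of 26 listed, 24 were on the array and 20 were tested. The counts below stand against 14.6%, 13.7% and 17.1% of all genes called in Th1, Th9 and Th17 (9.4%, 6.32% and 10.4% lower). In Th1 none was higher and 1 lower in PBAB, Cxcl11, another interferon-induced ligand of Cxcr3, at 4.13-fold (-2.05 ± 0.24, adjusted p = 0.000463). In Th9 none was higher and 3 were lower: the neutrophil attractant Cxcl3 (-1.63 ± 0.28, adjusted p = 0.00443, with both means below 5.07), Ccl24, an eosinophil attractant of macrophages, 5.96-fold lower (-2.57 ± 0.22, adjusted p = 8.55e-05), and Ccl17, which shares Ccr4 with Ccl22, 2.23-fold lower (-1.15 ± 0.31, adjusted p = 0.0344). In Th17 none was higher and 4 were lower: the neutrophil attractant Cxcl2 (-1.86 ± 0.28), Cxcl3 (-2.81 ± 0.28), the platelet chemokine Pf4 (-1.69 ± 0.41) and Cxcl16 (-0.78 ± 0.18), the ligand of Cxcr6. The median PBAB-minus-HA difference of the 20 ligands was 0.06 in Th1, -0.01 in Th9 and -0.13 in Th17, near the medians of all genes given above. Averaged over the cultures, 1 of the 20 was higher and 7 were lower, against 13.2% and 17.3% of all genes.

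The genes whose levels were most like each member over the 12 HA and PBAB arrays are given by Pearson correlation, as a description of arrays that share cultures and activation. For Ccl3 they were Cd9 (0.94), Ccl4 (0.93) and Id3 (0.92), and for Ccl4 Serpinb6b (0.94), Crabp2 (0.93) and Ccl3. For Ccl9 they were Clec7a (0.97), Zw10 (0.96) and Ctsh (0.96), and for Ccl22 D430020J02Rik (0.94), Mrc1 (0.93) and Cars2 (0.93). Clec7a and Mrc1 are macrophage receptors for sugars. For Ccl6 they were Hnrnpa0 (0.98), Abhd13 (0.98) and Ovca2 (0.97), and for Ccl5 Sema3b (0.93), Pde8a (0.93) and Serpinb9 (0.93). For Xcl1 they were Gpr153 (0.95), Eny2 (0.92) and Slc5a10 (0.92), and for Ccl1 Acacb, Parm1 and Cd164l2, each at 0.93. For Cxcl9 they were Scn4b (0.91), Hp (0.91) and Iftap (0.90), and for Cxcl10 Rap1gap2 (0.93), A830005F24Rik (0.93) and Mcpt8 (0.92).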

How the data were processed

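The deposited values of 45101 probe sets on 15 arrays are log2 expression levels that the authors made with RMA (background correction, quantile normalization and a summary per probe set), per the submitters' processing notes. Its version is not stated there. That the scale is log2 was read from the range of values. They were used as deposited, although values spread less in the APC alone arrays than in the others, as given above. Names came from GEO's platform annotation. Of the probe sets, 34958 had 1 gene symbol, 932 several and 9211 were unnamed here. Each of 18194 genes was read from its probe set with the highest mean, and the 15498 above the 40th percentile of the table (5.07) in at least 2 arrays were tested. Means below it are not told from background and carry no fold.

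Groups follow the labels. All 15 arrays entered 1 limma fit (limma 3.58.1 in R 4.3.3) that gave each group a mean, with 6 residual and 4.38 prior degrees of freedom, so that an APC alone group of 1 array borrows the spread of the others. Contrasts were PBAB minus HA per culture, averaged and between cultures, lineages within an activation, and HA or PBAB minus APC alone. The number of arrays limits the precision. Replicate numbers were checked for pairing: deviations of same-numbered arrays correlated at 0.296 to 0.708 (median 0.484) over 15 pairs of groups, so the labels' numbers were taken to mark pairs, and values from a fit that adds this number (the replicate block) are given where a call changes.

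The named genes are the 10 members, their receptors, up to 4 other ligands or receptors per contrast with the smallest adjusted p, and the 3 genes most correlated with each member. Members and lists were chosen with earlier results of these data known. In simulated data of 15498 genes for the Th1 contrast, the fit called 68% of 100 genes changed by 1 log2 unit and 100% of 100 genes changed by 2. There were 8 false calls among the unchanged genes. The simulated noise was independent between arrays, without the deviations that same-numbered arrays share here, so it does not cover the effect of that pairing. Alternatives were the filter, centring, another quantile normalization, array weights, the mean of the probe sets, the replicate block, the 12 HA and PBAB arrays alone, and each array left out. Upstream sequences are from RefSeq (GRCm38.p6) and were aligned with Biopython 1.88.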

Additional observations from a re-analysis of the deposited data

Results flagged for a closer look

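The PBAB-minus-HA difference of a member was itself tested between cultures, and 6 such contrasts of 3 members were called by the limma fit. For Ccl3 the difference of Th17 less that of Th1 was -5.62 log2 units, and less that of Th9 it was -4.29. For Ccl4 the same contrasts were -2.64 and -2.31, the first not called without any 1 of 3 arrays and the second without any 1 of 9, as named above. For Ccl9 the difference of Th9 less that of Th1 was -3.56, and that of Th17 less that of Th1 was -3.36. No group had the 4 or more arrays that a check for a single distant array needs.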

How the results depend on the processing

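Small groups, of 2 arrays (1 for APC alone), limit every comparison. Numbers of members called are given against the value with all arrays and no block. With the replicate block they were 10 (against 4) for PBAB minus HA in Th17, 3 (1) for its contrast of Th9 with Th1, 5 (3) for that of Th17 with Th1, 5 (3) for Th17 minus Th1 under HA and 5 (3) for Th9 minus Th1 under PBAB. The block made 20 further calls of single members, each given above, and changed no other call. After another quantile normalization they were 1 (2) for the contrast of Th17 with Th9, 5 (3) for HA minus APC alone and 5 (8) for PBAB minus APC alone. Over all genes, 295, 13102 and 13082 of 14845 were then called, in that order, against 265, 14051 and 13917 of 15498. After centring each array on its median the count was 5 (3) for HA minus APC alone, where the median over all genes moved from 0.36 to 0.93. There 13253 of 14988 genes were called. With the mean of the probe sets the count was 1 (2) for Th17 minus Th9 under HA, where Cxcl9 no longer passed the filter and was not tested. Of all genes, 724 of 14775 were called there, against 739 of 15498. For the fits below that leave out 1 array the share of all genes is not given. Their member counts thus cannot be told from a general gain or loss of calls. Leaving out 1 array at a time, PBAB minus HA gave 1 to 4 calls in Th1, 2 to 5 in Th9, 3 to 8 in Th17 and 5 to 7 on average. The contrasts between cultures gave 1 to 2 for Th9 with Th1, 2 to 4 for Th17 with Th1 and 1 to 2 for Th17 with Th9. The lineages gave 4 to 5, 3 to 5 and 0 to 2 under HA, and 2 to 3, 3 to 3 and 1 to 2 under PBAB, in the order Th9 minus Th1, Th17 minus Th1 and Th17 minus Th9. HA minus APC alone gave 2 to 4 and PBAB minus APC alone 4 to 8. Of the differences called with all arrays and no block, 5 reversed direction, all against APC alone: Ccl4 in PBAB after another quantile normalization (-1.01, adjusted p = 0.00133), and without Th1 APC alone Ccl5 in HA (-0.0086, adjusted p = 0.972) and Ccl3 (-0.72, adjusted p = 0.074), Ccl4 (-0.23, adjusted p = 0.466) and Ccl5 (-0.32, adjusted p = 0.195) in PBAB. The highest values with an array left out were 1.53 for Ccl5 in HA, without Th9 APC alone, and 2.54, 1.66 and 1.18 for Ccl3, Ccl4 and Ccl5 in PBAB, without Th17 APC alone. Leaving out the APC alone array of a culture also takes the HA and PBAB arrays of that culture out of the average. Differences that were not called could change sign too, such as Ccl5 in Th1 (-0.63 to 0.12 with an array left out), Cxcl10 in Th9 (-0.30 to 0.32), Ccl1 in Th9 (-0.85 to 0.06) and Xcl1 on average (-0.14 to 0.23). For the other changes the cause was not tested. The fit on the 12 HA and PBAB arrays alone kept the direction and call of 129 of its 130 values.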
